A study of Drosophila melanogaster with 3 samples.

Results

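Caudal ChIP-seq peaks were examined at 3 genes of the ecdysone response, br, Eip74EF and Eip75B, in Drosophila melanogaster. The members were chosen by position: peaks of the deposited list whose midpoint lay in X 1460000 to 1580000 (br, 120 kb), 3L 17540000 to 17620000 (Eip74EF, 80 kb) or 3L 17930000 to 18080000 (Eip75B, 150 kb), on the BDGP5 assembly. This gave 42 of the 7579 peaks in the list, with 3 at br, 15 at Eip74EF and 24 at Eip75B. The loci were proposed with earlier results of the same list known, so the number and place of their peaks are given as a description and no value below carries a test.

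The series holds 3 samples, which are 1 ChIP sample and 2 input samples. The ChIP material was labelled stage 3dFemale and source 7T, and its title names the transgene cad-GFP, so that an antibody to GFP (labelled NWG-GFP) recovered chromatin bound by the tagged Caudal protein. The inputs carry the same stage and source labels and are chromatin taken before the antibody step. No input values were analysed here. The growth text names y w, VK33 flies and describes collecting embryos, which differs from the stage label, and the sources used here do not give the tissue, the promoter that drives the transgene or the number of animals. The title of the ChIP sample covers replicates 1 and 2 but only 1 peak list stands for both, so no value has a replicate error, and the read depth is unknown.

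The steroid hormone 20-hydroxyecdysone binds a heterodimer of the nuclear receptors EcR and Usp, which switches on a small set of early genes at the onset of metamorphosis. Several of these encode transcription factors that in turn control late genes. The gene br (broad) encodes BTB zinc-finger proteins, Eip74EF encodes ETS-domain proteins, and Eip75B encodes nuclear receptors that bind heme. All are also known to act in the adult ovary, where ecdysone signalling guides egg chamber development. Caudal itself, a homeodomain protein, patterns the posterior of the embryo and acts in the intestine of the adult.

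Each peak in the list has a score on the scale of the authors, which starts at 50. In the whole list 31 peaks scored 3100 or slightly more, up to 3146, and none of the 42 peaks reached 3100. A peak's score is used only to order and describe peaks of this list, and is not an amount of binding. Gene positions on BDGP5 were not used here, so a locus means the stretch given above and not a set of transcripts. In a gene table of Release 6, used for names and neighbours only, br (locus tag Dmel_CG11491) overlapped Mur2B, and the next protein-coding gene after it was dor, which encodes the vesicle trafficking protein Vps18. In that table Eip74EF (Dmel_CG32180) overlapped no other gene and lay between CycT, the cyclin subunit of the elongation factor P-TEFb, and Vps60, an ESCRT component. Eip75B (Dmel_CG8127) overlapped the protein-coding genes CG32192 and CG42393 and a pair of long noncoding RNAs. A peak at br or Eip75B therefore cannot be assigned to 1 gene from its position alone. Peaks at Eip74EF were not assigned to a gene either, as no BDGP5 gene positions were used.

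**Figure D1:**
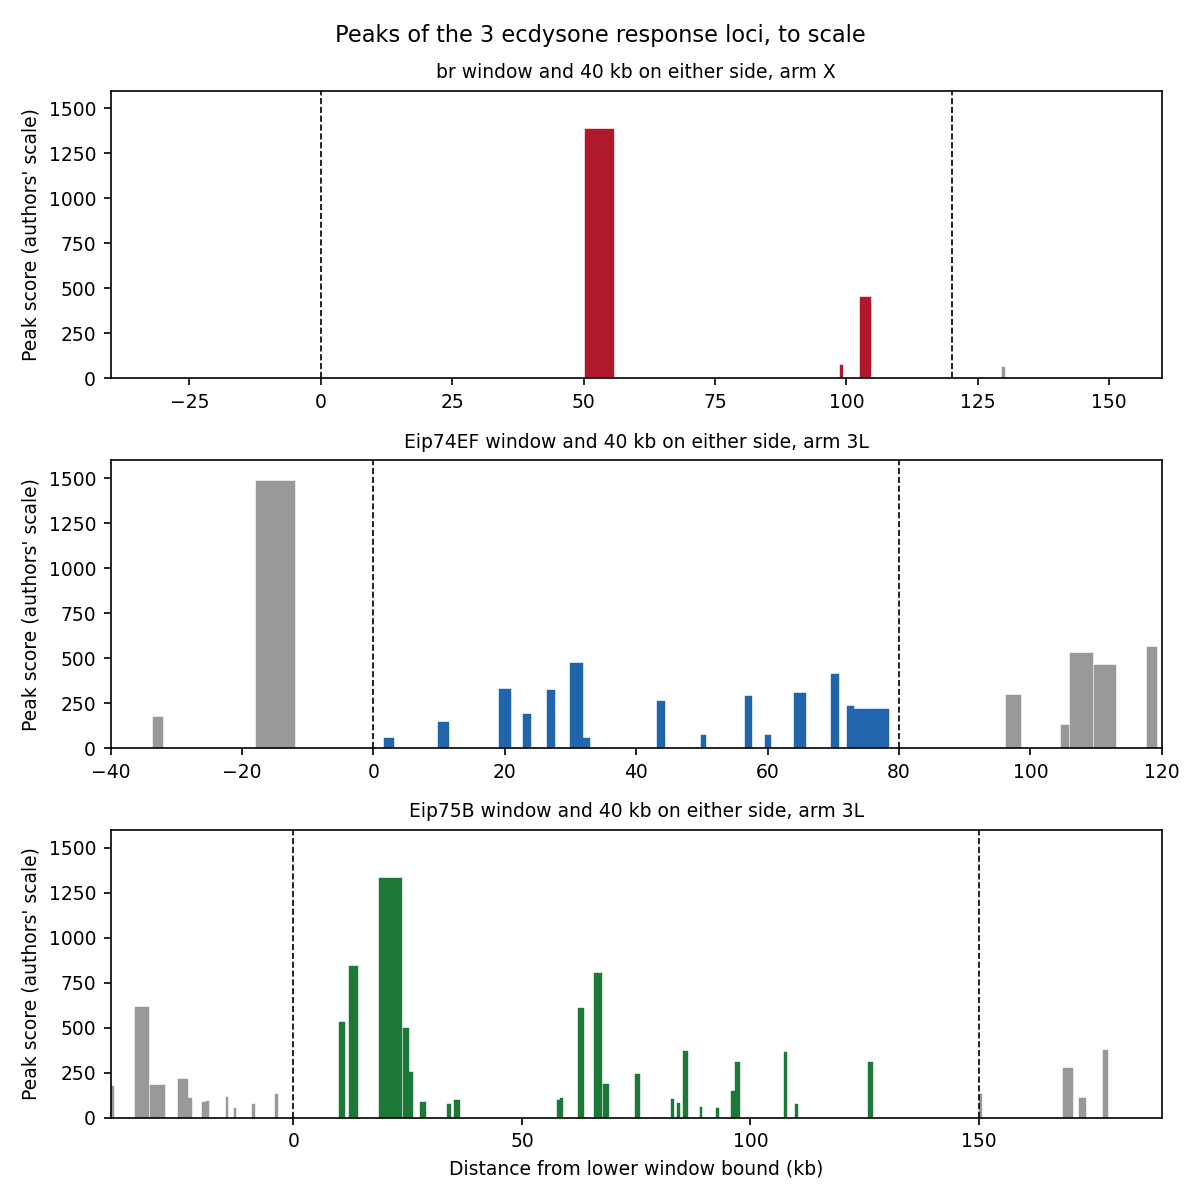
Peaks of the 3 loci drawn to scale: distance from the lower window bound in kb on the horizontal axis and the authors' score on the vertical axis, with each bar as wide as its peak. Dashed lines mark the window bounds, coloured bars are the 3, 15 and 24 peaks inside, and grey bars are peaks in the 40 kb on either side.

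The br locus held few peaks, and 1 of them was broad and high. This peak lay at X 1510341 to 1515773, was 5433 bp wide and had a score of 1386.52. Only 4.34% of the 1381 peaks on X scored as high or higher, and 3.19% were as wide or wider. The second peak, at X 1562665 to 1564611, was 1947 bp wide with a score of 453.87, reached or exceeded by 27.0% of the peaks of the arm. The third, at X 1558834 to 1559431, was 598 bp wide and scored 74.27, near the floor of the list. The broad peak alone supplied 68.1% of the 7978 bp inside peaks.

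Long stretches without a peak surrounded the broad br peak. Below it the list had no peak for 98.2 kb, down to a peak of score 258.66 at X 1411316 to 1412165 outside the window. Of the 1380 gaps between neighbouring peaks on X, 48 (3.48%) were as long or longer. Above it the next 43.1 kb were empty, a length that 7.97% of the gaps reached. Shares of gaps, here and below, count gaps by number. Long gaps span a larger share of the arm than these values give, so they do not measure how rare such empty sequence is. The first 40 kb of the window held no peak, and 9 of its 12 bins of 10 kb were empty. Empty bins were common on the arm, with 1415 of the 2238 bins of X (63.2%) empty. The nearest neighbour of the broad peak was 46.1 kb away, midpoint to midpoint. Among the 117 peaks of X with a score of 1000 or more, the median distance to the nearest neighbour was 4.39 kb, and no other had its nearest neighbour as far away (1 of 117, or 0.855%, counting the br peak itself).

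In width the br peak was less unusual among high peaks, since 29 of those 117 (24.8%) were at least as wide and their median was 4173 bp. Peaks of X within 20% of its width numbered 65, and 30.8% of them scored as high or higher. The second br peak had a like position, with 32.3% of 294 peaks of similar width at or above its score. The narrow peak of score 74.27 was exceeded or equalled by 67.7% of 133 such peaks. Thus 2 of 3 br peaks lay above the median for their width, where 50.3% of all X peaks did.

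The Eip74EF locus held many peaks of low or middle score, spread along the whole window. The 3 highest were at 3L 17569957 to 17571867 with a score of 470.74, at 17609624 to 17610844 with 409.61, and at 17559167 to 17560871 with 331.01. Even the highest was matched or exceeded by 22.0% of the 1548 peaks of 3L. The median score of the 15 peaks was 234, with quartiles of 110 and 315, beside a median of 199 and quartiles of 97.8 and 418 for the arm. The locus therefore spanned the lower and middle parts of the arm's range without its upper tail. Scores under 100 were held by 4 of the 15 peaks (26.7%), near the share of 25.9% over all peaks of 3L. The lowest of all, 53.42, belonged to the first peak inside the window, at 17541625 to 17543085.

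Peaks at Eip74EF followed each other at a median of 4361 bp between midpoints, against 5368 bp on 3L. The longest empty stretch between them was 10.2 kb, from 17572908 to 17583155, and 26.4% of the gaps of the arm were that long or longer. Each of the 8 bins of 10 kb in the window held at least 1 peak. The 5 peaks from 17559167 to 17572907 formed a run, defined as 5 or more peaks with neighbouring midpoints within 5 kb. This run was 13.7 kb long, had a median score of 321 and included the highest peak of the locus. It was among the smallest of the 47 runs on 3L, whose median size was 6 peaks.

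The widest peak of Eip74EF stood apart from the rest in form. It lay at 17613177 to 17618440 and was 5264 bp wide, but its score was 218.46. Of the 84 peaks on 3L that were 4 kb or wider, the median score was 785, and 6 (7.14%) scored as low or lower. The other 14 peaks of the locus were 818 to 1930 bp wide, and the narrowest was at 17589825 to 17590642. A gap of 94 bp separates the wide peak from its neighbour below, so that the pair nearly touched. Among the members of this locus, Spearman's rho of score and width was 0.49 (15 peaks), and among those of Eip75B it was 0.76 (24 peaks), either side of the 0.67 over the 1548 peaks of the arm. Score and width come from the same peak call, and these values are a description of the peaks only.

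Eip75B held many peaks, a few of them high, and 1 of 24 (4.17%) scored 1000 or more, beside 6.40% on 3L. The highest was at 3L 17948795 to 17953813, a peak of 5019 bp with a score of 1333.24, which 2.91% of the peaks of 3L reached. The next were at 17942106 to 17944226 with 846.06 and at 17995816 to 17997437 with 806.91, values that 9.11% and 9.82% of the arm reached. The median score of the 24 peaks was 215, with quartiles of 95.9 and 401, beside a median of 199 and quartiles of 97.8 and 418 for the arm. Scores under 100 were held by 8 of them (33.3%), beside 25.9% on the arm, and the lowest, 56.66, lay at 18022537 to 18023107. The narrowest peak, 524 bp at 18018907 to 18019430, scored 58.15 and lay beside it.

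At a floor of 400, set after the scores were seen, the high peaks of Eip75B fell into 2 groups. All 6 peaks that scored 400 or more had their midpoints either 10.6 to 24.6 kb or 62.9 to 66.6 kb from the lower bound. The upper quartile of score was 401 at the locus and 418 on 3L. The share of peaks at or above this floor was therefore no higher than on the arm. The first group, of 4 peaks, held scores of 531.92, 846.06, 1333.24 and 497.39, and its last 2 peaks were 130 bp apart. The second, at 17992292 to 17997437, held scores of 608.66 and 806.91. The layout depends on the floor, since peaks of 368.84 and 366.41 lay outside both groups, at 85.8 and 108 kb. Between the groups lay the longest gap between 2 peaks of the locus, 21.2 kb from 17966391 to 17987586, a length that 15.2% of the gaps on 3L reached. The last 50 kb of the window held 3 peaks, at most 366 in score, while the middle 50 kb held 13 and the first 50 kb held 8.

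Of the Eip75B peaks, 12 of 24 (50.0%) belonged to runs of 5 or more, beside 18.2% of all peaks of 3L. At Eip74EF 5 of 15 (33.3%) did so, and at br 0 of 3, where the share over the peaks of X was 16.8%. Runs depend on the same positions as the number of peaks per window, so these shares are not separate from that number. The 3 peaks of br could not form a run of 5 by themselves. The larger Eip75B run held 7 peaks from 18012668 to 18027758, with a median score of only 105, and 12 of the 47 runs on the arm (25.5%) had as many peaks or more. The smaller held 5 peaks from 17987587 to 17998970 and included the second high group. The highest peak of the locus was in neither run. Neighbouring midpoints were a median of 3337 bp apart, and 5 of the 23 gaps (21.7%) were 500 bp or shorter, near the 19.8% of all gaps on 3L. Joined across such gaps, the 24 peaks became 19 and the 15 of Eip74EF became 13.

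**Figure D2:**
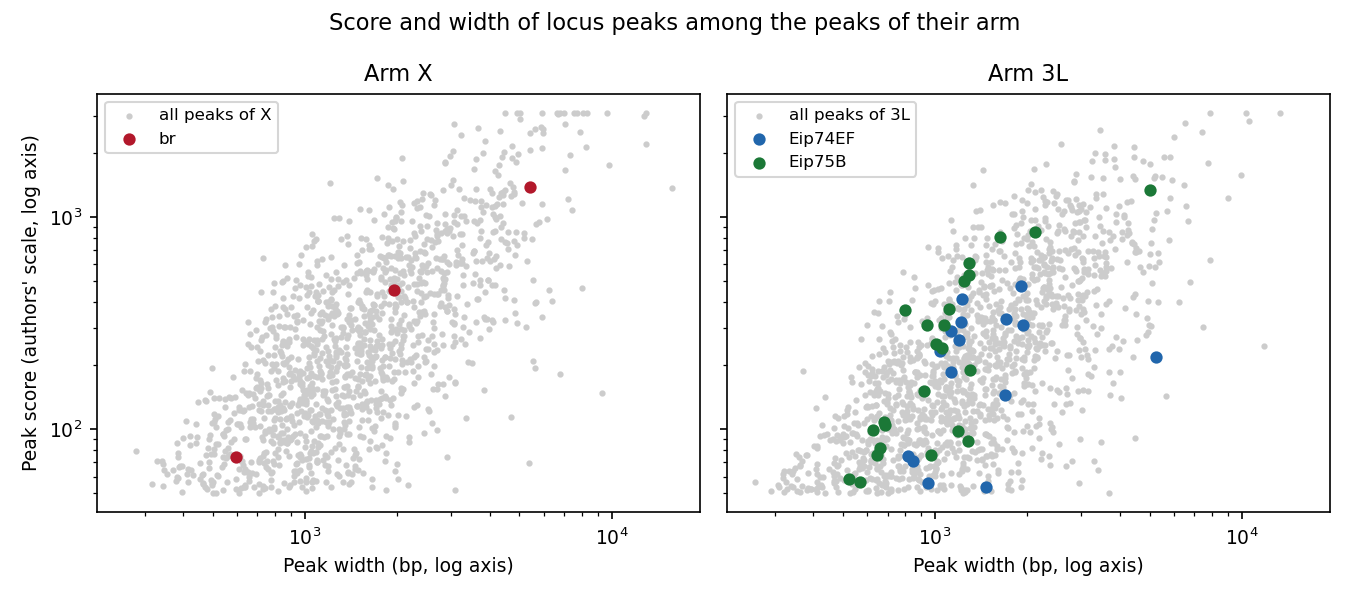
Score against width of each peak, both on log axes, for arm X (left) and arm 3L (right). Grey points are all 1381 and 1548 peaks of the arms and coloured points are the locus peaks. The wide, low Eip74EF peak (5264 bp, 218.46) lies to the right of the others. The median score of arm peaks of like width is not drawn. By calculation 16 of the 24 Eip75B peaks (66.7%) lay above it, beside 51.0% of all 3L peaks.

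Some Eip75B peaks were narrow for their score, and those with the lowest shares at like width are named first. The peak at 18037281 to 18038080 was 800 bp wide with a score of 366.41, and of 297 peaks of 3L within 20% of that width 10 (3.37%, itself included) scored as high or higher. The values were 6.77% for the peak of score 806.91, which was 1622 bp wide, and 7.99% for that of 608.66, which was 1291 bp wide. Others went the other way, down to 0.444 times the median score at like width for the peak that starts at 17957649. In all, 16 of 24 peaks (66.7%) lay above the median score of arm peaks of like width. At Eip74EF 9 of 15 (60.0%) did so, and at br the share was also 66.7%. The background over all 3L peaks was 51.0%. The median width was 1032 bp at Eip75B and 1213 bp at Eip74EF, below the 1303 bp of the arm.

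Against the arm median score alone the loci were ordinary. Of the Eip75B peaks 12 of 24 (50.0%) and of the Eip74EF peaks 9 of 15 (60.0%) lay above the median of 3L, where the background is 50.0% by construction. At br 2 of 3 lay above the median of X, which was 232 (background 50.0%). A score of 1000 or more was found once at br, once at Eip75B and not at Eip74EF, against 8.47% of the peaks of X and 6.40% of those of 3L. Each locus had 1 peak of 4 kb or more, where the shares on the arms were 8.40% on X and 5.43% on 3L.

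To set the loci beside the rest of their arms, every complete window of the same length was laid end to end from the locus in both directions. These were 185 windows of 120 kb on X, 290 of 80 kb on 3L and 155 of 150 kb on 3L. All of them were used in place of a random draw. The windows are neighbours on 1 chromosome in 1 list, and their shares are given without a test.

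Among windows of its length, br was on the sparse side of the arm and both 3L loci were near its dense end. The 3 peaks of br compare with a median of 7 and quartiles of 3 and 12 on X. At least as many peaks were found in 140 of the 185 windows (75.7%), and at most as many in 58 (31.4%), so that br lay within the common range. The 15 peaks of Eip74EF compare with a median of 5 and a highest value of 21, and 6 of 290 windows (2.07%) held at least as many, the locus included. Among these 6, the window 3L 17940000 to 18020000 (18 peaks) lay inside the Eip75B locus. The window 17860000 to 17940000 (15 peaks) overlapped its lower end, so the ranks of both 3L loci are not separate observations. The 24 peaks of Eip75B compare with a median of 9 and a highest value of 30, and 4 of 155 windows (2.58%) held at least as many, again with the locus included.

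**Figure D3:**
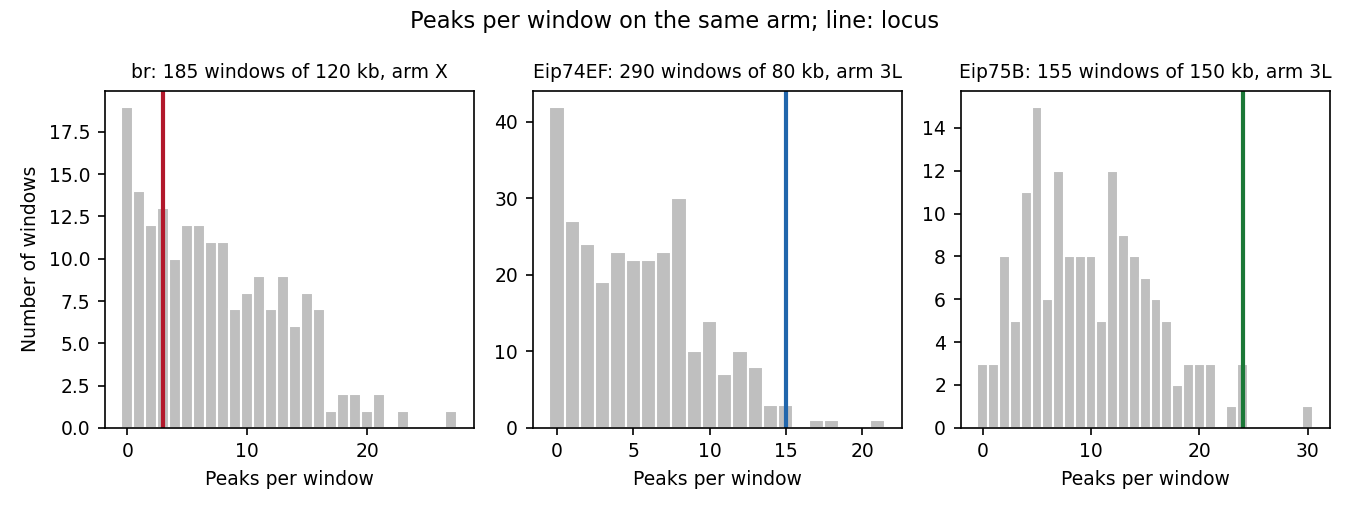
Number of peaks per window (horizontal axis) for all windows of equal length on the same arm (vertical axis: number of windows). Coloured lines mark br at 3 peaks, Eip74EF at 15 and Eip75B at 24, with br below the median of 7 and both others in the upper tail.

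The loci ranked differently by other measures. Peaks covered 29.4% of the Eip74EF window, 19.1% of the Eip75B window and 6.65% of the br window. As much or more was covered in 8.62% of the windows for Eip74EF, 21.3% for Eip75B and 59.5% for br. By the score of the highest peak in a window, br and Eip75B were in the upper part of their arms, with 25.9% and 23.9% of windows at or above them. Eip74EF was not, since 164 of 290 windows (56.6%) had a peak of at least its top score of 471. The number of occupied bins of 10 kb was 8 of 8 at Eip74EF, as in 8 of the 290 windows (2.76%). It was 10 of 15 at Eip75B, a number that 12.9% of windows reached, and 3 of 12 at br, which 67.6% reached.

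Raising the lowest score that was kept separated Eip74EF from Eip75B. At a floor of 200, Eip74EF kept 9 peaks and 2.76% of windows held at least as many, while Eip75B kept 12 and 3.23% of windows did. At a floor of 400, Eip74EF kept 2 peaks, a number reached in 38.3% of windows, while Eip75B kept 6, reached in 11.0%. At 800, Eip74EF kept 0 and Eip75B kept 3, where the medians of the windows were 0 and 1. For br the count was 2 at floors of 100, 200 and 400 and 1 at 800. The window median on X fell from 5 to 2 between floors of 100 and 400, so that br moved from below the median to the median.

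**Figure D4:**
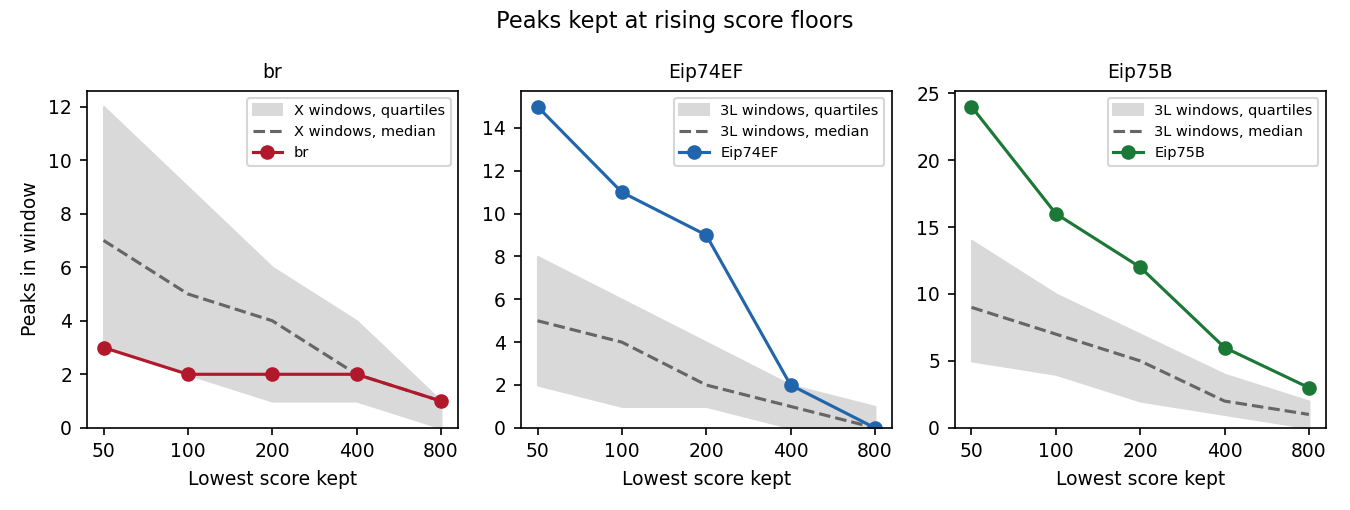
Peaks kept in each locus window (coloured points) as the lowest score kept rises from 50 to 800, beside the median (dashed) and quartiles (grey band) of the windows of equal length on the arm. Eip74EF falls from 15 peaks to 0 and meets the median, Eip75B falls from 24 to 3, and br stays between 3 and 1.

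The surroundings of the loci differed as well. The stretch of 3L just below Eip75B was itself dense. The window of equal length there, 3L 17780000 to 17930000, also held 24 peaks, with a lower median score (123) and a highest score of 856. The window just above Eip75B held 9, the median of such windows on the arm. Across the 310 kb between the Eip74EF and Eip75B windows there were 33 peaks, or 10.6 per 100 kb, beside 18.8 per 100 kb at Eip74EF, 16.0 at Eip75B and 6.65 on the whole arm. The windows next to Eip74EF held 7 peaks below and 6 above, with higher median scores (405 and 495) than the locus itself. Those next to br held 9 below and 3 above, with no score over 582.

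The bounds of the windows divided some of these features. A peak of 5902 bp and score 1485.26, higher than any of the 42, lay at 3L 17522083 to 17527984, 15.0 kb below the lower bound of Eip74EF by its midpoint. The nearest peak above that window scored 293.38 and was 17.4 kb from the bound. At Eip75B the nearest peaks outside were at 3.71 kb below (score 130.55) and 0.403 kb above (score 129.77). The last peak inside, at 18055795 to 18056734 with a score of 311.11, was 23.7 kb from the upper bound. At br the nearest peak above scored 61.28, 9.92 kb beyond the bound. Which of these peaks belong to the genes was not tested.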

How the data were processed

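MACS made the peak list, per the file headers, from reads aligned with Bowtie on BDGP5, per the submitters' processing notes. The sources used here do not give their versions and settings, the use of the input or any pooling of replicates. The deposited list gives the start, end and score of each peak. The authors do not define the score in the file, so it was used to rank peaks within this list only. Coordinates count from 1 (deposited starts were read as 0-based), and a midpoint is the mean of both ends. Peaks were counted in Python 3.11.15 with numpy 2.4.6 and pandas 2.3.3, and the counting was tested on simulated data. The members, windows and measures were chosen with earlier results of these data known. Text names per locus the 3 highest peaks, the widest and narrowest, those at the bounds, the longest gap and the densest run; other peaks were named after their values were seen, as were the bins, score floors and like-width comparison. No test was run, since 1 list has no replicates and the members were not chosen independently of it. No BDGP5 sequence or annotation was used here, so the planned promoter motif search and other ecdysone genes were not analysed.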

Additional observations from a re-analysis of the deposited data

How the results depend on the processing

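Of 72 recalculations of 15 values, 58 stayed within set limits and 14 did not. The limits were a factor of 1.5 for a count and the exact 95% binomial interval for a share. That interval treats neighbouring peaks or windows of 1 list as independent, so it served as a yardstick and not as an error. It was wide where peaks were few, at 9.43% to 99.2% for the br share above the arm median score. Staying within such an interval shows little. Keeping the 1000 peaks of highest score left 1 peak at br, 0 at Eip74EF and 3 at Eip75B, and the share of windows with as many became 58.4%, 100% and 18.7%. Keeping scores at or above the list median left 9 peaks at Eip74EF and 12 at Eip75B. The rank of these counts among windows held, at 2.76% and 3.23%. Counting only windows that hold a peak gave 84.3% for br. The share of peaks in runs depended on the distance that joins them: within 2 kb it was 0% at Eip74EF and 0% at Eip75B, and within 10 kb it was 100% and 87.5%. After merging across gaps of up to 500 bp the share at Eip74EF was 0%, and at Eip75B it fell from 50.0% to 31.6%, within its wide interval. Fewer peaks or longer joins change these values by construction. Moving the bounds by 10 kb, steps of 10 kb and windows of all 5 large arms moved none of the results they were applied to beyond these limits. No paired analysis was possible because 1 list stands for both ChIP replicates and no input values were analysed, and for the same reason no replicate could be left out. The unknown depth limits what the empty stretches at br show: a deeper library could have brought more positions over the score floor of 50.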
